A study of Mus musculus with 28 samples.

Results

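The 44 genes described here are interferon-stimulated genes and RNA sensors, taken by symbol from a count table of 24079 genes in 28 libraries of transformed mouse embryonic fibroblasts. Each symbol was found once. They were grouped by known role into 9 RNA and nucleic acid sensors, 4 transcription factors, 13 antiviral effectors, 7 genes of ISG15, ubiquitin and ADP-ribose conjugation, 6 genes of antigen processing and presentation, 4 interferon-induced GTPases and the RNA-editing gene Adar. All cells were fibroblasts of strain C57BL/6x129Sv transformed with RAS and DNP53, so the controls carry both as well. The labels name FLAG-mCherry-HA/PURO and mCherry/PURO lines, both made in untagged clone 18, with 3 libraries each (HA siRNA in REP1 and REP2, and FLAG siRNA in REP2). Ctag-Cyclin D1 clones 14 and 12 each had 1 library with FLAG, HA, Qiagen, Nature, Life and SCR siRNA, 1 with leptomycin B at 20 ng/mL and 1 without treatment. Untagged-Cyclin D1 clones 25 and 18 each had 1 library with FLAG, HA and SCR siRNA. Leptomycin B blocks the nuclear export receptor XPO1, SCR is the control siRNA, and treatments ran overnight. Each clone is 1 cell line, and nothing in the labels says that libraries came from separate cultures, so p-values measure the spread between these libraries, which may be technical. An n of 3 or 4 stands in each title without its meaning.

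Cells detect foreign nucleic acid with sensors such as MDA5 (Ifih1) and RIG-I (Ddx58), which signal through the adaptor MAVS to switch on type I interferon. Secreted interferon then binds the IFNAR1 and IFNAR2 receptor chains, and a complex that holds STAT2 and IRF9 binds interferon-stimulated response elements near the start of target genes. Those targets include the sensors themselves, and fibroblasts at rest hold low levels of many of these transcripts. Double-stranded RNA, siRNA among other forms, is known to engage several of the sensors.

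Library totals ran between 26558256 and 81512769 counts, and a count of 3 corresponded to 0.0358 to 0.114 CPM, the count scaled to the size of its library. All 10 fibroblast markers were found at a mean above 1 CPM, and their sum was between 7296 and 14180 CPM. Of the markers of other cells, 3 of 10 myeloid ones (led by Cd14, sum 12.4 to 118.6 CPM), 3 of 5 epithelial ones (led by Krt18, sum 87.4 to 1958 CPM) and 1 of 4 endothelial ones exceeded 1 CPM in some library. Macrophage Emr1 was at 0 in every library, and no dendritic or lymphoid marker reached 1 CPM. The siRNA check was cyclin D1 itself (Ccnd1), which in clone 14 and clone 12 measured 50.12 and 63.75 CPM with Nature siRNA, 52.47 and 73.69 with Life, 131.1 and 180.8 with FLAG, 219.2 and 222.2 with HA, and 322.9 and 328.9 with Qiagen, against 1287 and 1128 CPM with SCR. The deepest library, clone 12 with SCR, also had counts for the fewest genes (14132). The 45S ribosomal RNA gene Rn45s took over 2% of counts in 4 libraries (Life and Nature of clone 14, HA of clone 12, and mCherry HA REP2).

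Response elements are shown for 6 members, because this motif is the known binding site of the complex that holds STAT2 and IRF9. In RefSeq promoter windows of 300 bases on GRCm38.p6 (250 before to 50 after the start), the element GAAANNGAAA on either strand was found in 16 of the 34 members with a window (47.1%), against 1079 of 27025 genes with one (3.99%). The gamma-activated (GAS) element TTCNNNGAA was found in 9 of the 34 (26.5%), against 9.55% of all genes. Capitals mark the matches to GAAANNGAAA or its reverse complement, and overlapping matches are joined; sequences run 5′ to 3′ on the gene's strand.
Isg15, chr4:156200855-156200916, minus strand: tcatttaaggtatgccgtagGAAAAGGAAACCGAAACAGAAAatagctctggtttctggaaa
Ifit1, chr19:34640765-34640833, plus strand: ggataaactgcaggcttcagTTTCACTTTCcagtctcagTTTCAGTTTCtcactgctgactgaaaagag
B2m, chr2:122147528-122147577, plus strand: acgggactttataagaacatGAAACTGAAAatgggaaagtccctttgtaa
Bst2, chr8:71537567-71537622, minus strand: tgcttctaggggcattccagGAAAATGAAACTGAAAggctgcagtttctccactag
Stat2, chr10:128270256-128270305, plus strand: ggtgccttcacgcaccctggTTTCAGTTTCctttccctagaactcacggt
Irgm1, chr11:48871421-48871470, minus strand: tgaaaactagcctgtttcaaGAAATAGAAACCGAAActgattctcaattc
Isg15 holds 3 overlapping matches between 78 and 66 bases before its start, and Ifit1 holds 2 separate ones at 104 and 85 bases. These 2 genes were near 0 in clone 14, while B2m, Bst2, Stat2 and Irgm1 were not, although each of these also holds a match. Of the 27 members near 0 in clone 14, 18 have a window and 9 of those hold the element, and of the 17 other members, 16 have a window and 7 hold it. A match is a description of letters in the window and not evidence of binding.

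Several members sit side by side in the genome. Ifit2 and Ifit3 lie 6.6 kb apart and Ifit3 and Ifit1 51.9 kb apart on chromosome 19, Oasl2 and Oasl1 10.9 kb apart on chromosome 5, Rsad2 and Cmpk2 12.7 kb apart on chromosome 12, and Gbp3 and Gbp2 47.4 kb apart on chromosome 3. Dtx3l and Parp9 overlap by 557 bases on chromosome 16, so their counts may not be separable, and counts within the Ifit, Oas and Gbp families are uncertain where near-identical copies share reads. Per kilobase of exon over all libraries, B2m, the light chain of MHC class I, was highest at 428.7 CPM per kb, followed by Trim25 at 14.3 and Eif2ak2 at 13.1 CPM per kb, and Psmb9 was lowest at 0.00697.

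**Figure D1:**
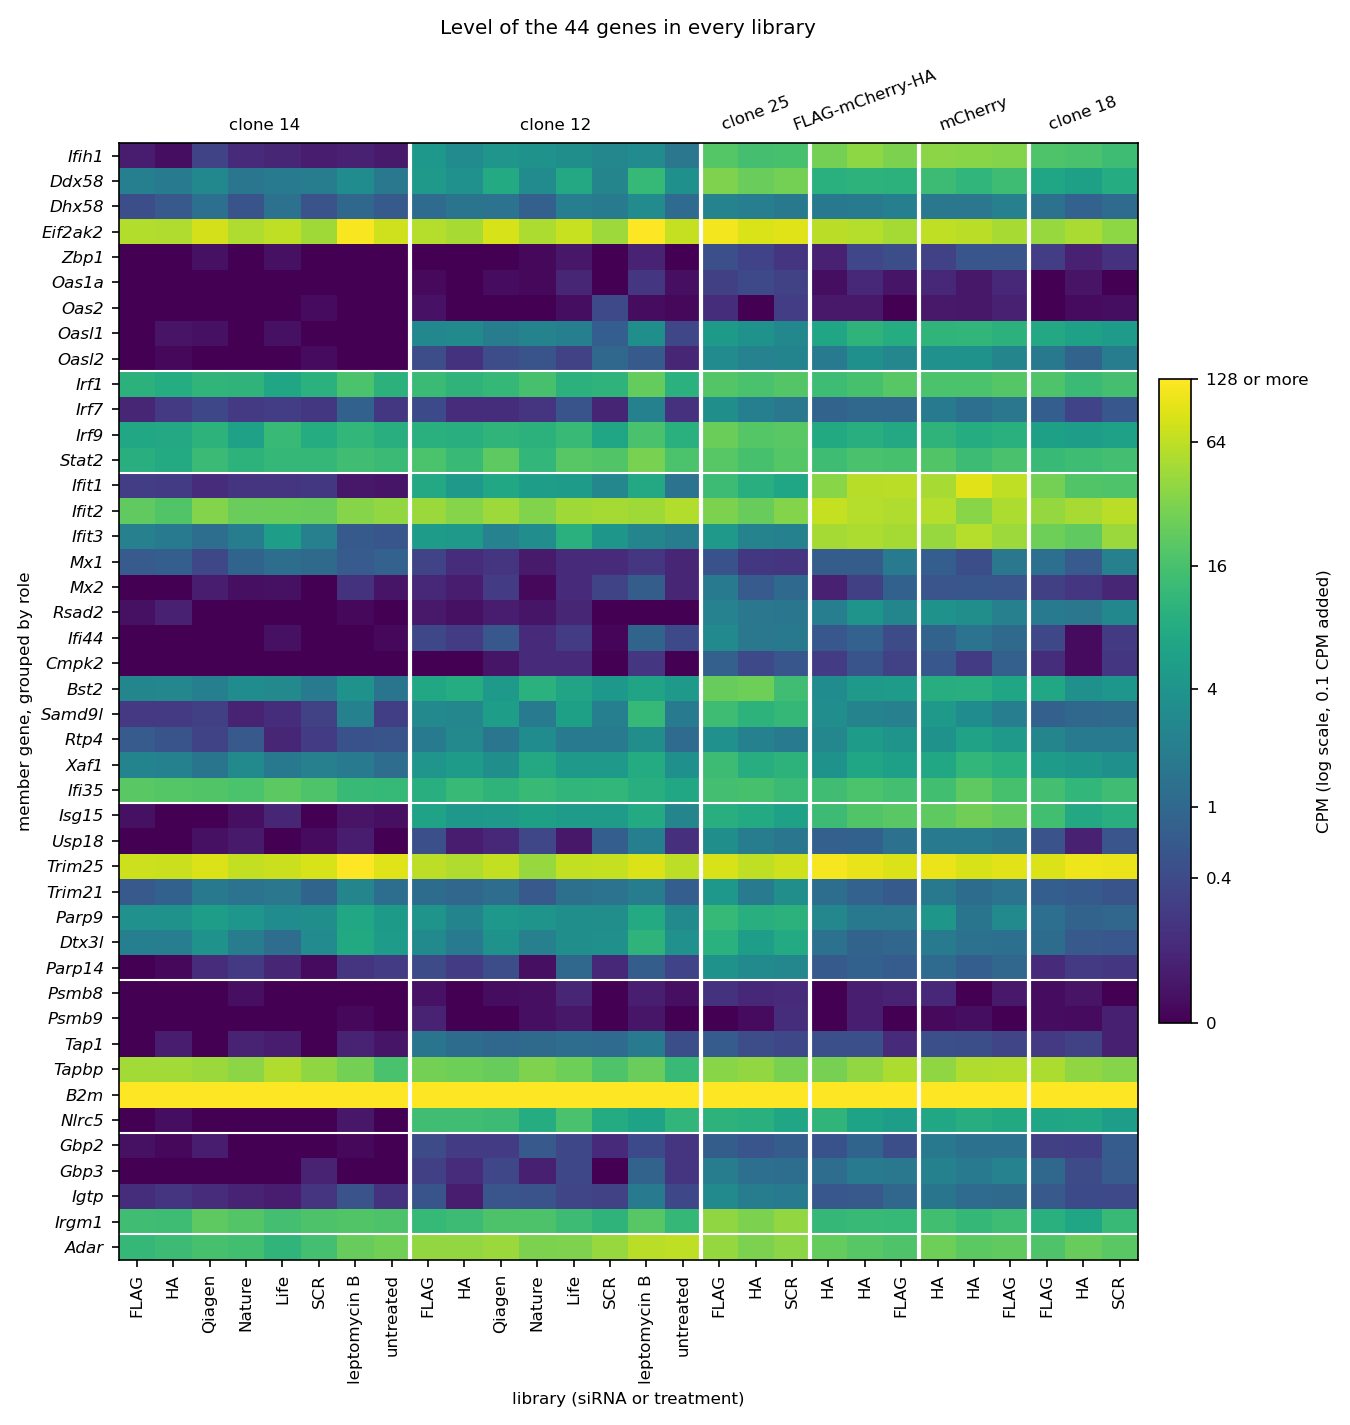
Level of the 44 genes (down, grouped by role) in each of the 28 libraries (across, grouped by clone or line), as CPM on a log colour scale with 0.1 CPM added. The 8 columns of clone 14 are dark for Nlrc5, Isg15, Oasl1 and Ifih1, which are lit in the columns of the other clones.

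Levels differed widely between the clones, and clone 14 was lowest for most of the genes. Over its FLAG, HA and SCR libraries, 27 of the 44 genes averaged under 1 CPM in clone 14, against 17 in clone 12, 9 in clone 25 and 18 in clone 18. Of those 27, 7 were under 1 CPM in every other clone too, and 7 were at 1 CPM or more in each other clone: the sensors Ifih1, Dhx58 and Oasl1, the effectors Ifit1 and Rtp4, the ubiquitin-like modifier Isg15 and the MHC class I activator Nlrc5. Clone 14 had the lowest mean of the 4 clones for 31 of the 44 genes, and clone 25 the highest for 29. In bulk RNA, fewer cells with a transcript and less of it per cell cannot be told apart.

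Nlrc5 (chr8:94434335-94527272), the transactivator of MHC class I genes, had 6 counts in all over the 8 libraries of clone 14, against 4215 counts over those of clone 12. Its level in clone 14 was 0, 0 and 0.0604 CPM (lowest, median and highest of 8 libraries), against 6.26, 12.1 and 16.4 CPM in clone 12. The ratio of its normalised counts was 0.00164 (95% exact interval 0.000601 to 0.00357, counting error only), and 0.000679 without the leptomycin B library of clone 14. No library of clone 14 reached the lowest of clone 12, and the untagged clones held 10.2, 9.24 and 6.77 CPM in clone 25 and 6.53, 6.92 and 5.42 CPM in clone 18 with FLAG, HA and SCR siRNA.

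Isg15 (chr4:156199424-156200818), the ubiquitin-like protein conjugated to proteins after interferon, had 10 counts in clone 14 and 1949 in clone 12, a ratio of 0.0059 (95% interval 0.00283 to 0.0109). It measured 0, 0.0339 and 0.114 CPM (lowest, median and highest) in clone 14, against 2.47, 4.92 and 7.94 CPM in clone 12. With FLAG, HA and SCR siRNA it held 8.76, 7.83 and 5.87 CPM in clone 25 and 14.4, 7.32 and 9.10 CPM in clone 18, so clone 14 alone lay near 0. Oasl1 (chr5:114923143-114937911), a 2′-5′ oligoadenylate synthetase-like protein, had 5 counts in clone 14 and 707 in clone 12, a ratio of 0.00814 (0.00263 to 0.0191), and of 0.00401 without the HA library of clone 14. Ifih1 (chr2:62595618-62646255), the double-stranded RNA sensor MDA5, had 33 counts in clone 14 and 1223 in clone 12, a ratio of 0.031 (0.0213 to 0.0438). Its relative RIG-I, Ddx58, was lower but present in clone 14, at 1.99 ± 0.11 CPM against 3.57 ± 1.06 CPM in clone 12 (SD, n = 3). Ifit1, which binds viral RNA lacking a host cap, had 54 counts in clone 14 and 1825 in clone 12, a ratio of 0.034 (0.0255 to 0.0446). Samd9l, an interferon-induced antiviral protein, measured 0.1004, 0.255 and 2.24 CPM (lowest, median and highest of 8 libraries) in clone 14, against 1.75, 2.75 and 11.9 CPM in clone 12. Its ratio was 0.168 over all 8 libraries of each clone and 0.063 without the leptomycin B library of clone 14, which held most of its counts there (64 of 212 remained). Tap1, the peptide transporter of MHC class I loading, had a ratio of 0.0527 from 20 counts in clone 14. Oas1a and the mitochondrial nucleotide kinase Cmpk2 had no count in any clone 14 library, against 17 and 23 counts over the 8 libraries of clone 12. With clone 14 set at a floor of 3 counts over its 8 libraries, they were 4.93-fold and 6.66-fold lower there. The upper 95% limits of their ratios were 0.279 and 0.200. Both genes averaged under 1 CPM in every clone, so these differences lie near the floor.

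Other members were not lower in clone 14, or were lower there without falling to near 0. Eif2ak2, the double-stranded RNA-activated kinase PKR, averaged 52.4 ± 5.46 CPM in clone 14 and 50.7 ± 6.15 CPM in clone 12 (SD, n = 3 each), with a log2 fold change of 0.00 and an SE of 0.07 (edgeR quasi-likelihood, adjusted p = 0.979). The means are over the FLAG, HA and SCR libraries, while fold changes between these clones are fitted over all 8 libraries of each. The 2 measures therefore need not match in size. Ifi35 was higher in clone 14, at 19.1 ± 1.49 against 10.9 ± 1.69 CPM, and its 3 libraries lay above the 9 of the other clones. Mx1, a dynamin-like GTPase that blocks viruses, averaged 0.842 ± 0.214 CPM in clone 14 and 0.209 ± 0.108 CPM in clone 12. B2m averaged 229.5 ± 12.6 CPM in clone 14 and 449.4 ± 10.6 CPM in clone 12, with a log2 fold change of -1.10 (SE 0.07, adjusted p = 1.21e-10). Adar, the enzyme that edits adenosine in double-stranded RNA, averaged 13.2 ± 1.68 CPM in clone 14 and 40.5 ± 1.26 CPM in clone 12, with a log2 fold change of -1.44 (SE 0.09, adjusted p = 1.09e-10). Parp9 measured 3.15, 4.01 and 7.27 CPM (lowest, median and highest of 8 libraries) in clone 14 and 2.46, 3.68 and 7.76 CPM in clone 12, and Irgm1 13.9, 17.1 and 21.6 CPM in clone 14 and 10.5, 13.5 and 19.7 CPM in clone 12, so that both overlapped between these clones. The low level of clone 14 covered abundant members too, while the means of PKR differed by less than their SD.

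In the fit over all genes, 42 of the 44 members passed the filter on low counts (Psmb8 and Psmb9 did not), and 29 were lower and 5 higher in clone 14 than in clone 12, where 33.4% of all 15099 genes were lower and 29.2% higher (edgeR quasi-likelihood, Benjamini-Hochberg adjusted p under 0.05, the threshold for a call throughout). A member near 0 in clone 14 passed the filter only through libraries where it is high, so these counts describe the data and are not a test. The 5 that were higher were Mx1, Ifi35, Tapbp, Trim25 and Irgm1. The 3 libraries of clone 14 lay below all 9 of the other clones for 24 of the 44 members, beside 10.8% of all tested genes.

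Untagged clone 25 held the highest levels of many of these genes. The 3 libraries of clone 25 lay above all 9 of the other clones for 21 of the 44 members, beside 11.4% of tested genes. Psmb8, which was not tested, is among the 21. Against clone 18, 22 tested members were higher and 6 lower in clone 25, beside 22.9% of all genes higher and 24.6% lower. A member near 0 in other clones could pass the filter through libraries where it is high. These counts of members too are a description and not a test. Parp9, which pairs with the ubiquitin ligase Dtx3l in interferon signalling, measured 12.0, 8.89 and 9.71 CPM in clone 25 with FLAG, HA and SCR siRNA, against 1.26, 0.866 and 0.948 CPM in clone 18 (log2 fold change 3.31, SE 0.24, adjusted p = 3.44e-09). Every clone 25 library was above every clone 18 library. Irgm1, an immunity-related GTPase that acts on membranes around microbes, measured 39.3, 30.7 and 39.5 CPM in clone 25, against 9.16, 6.55 and 12.6 CPM in clone 18 (log2 fold change 1.99, SE 0.16, adjusted p = 1.36e-08). Samd9l measured 13.9, 10.1 and 11.8 CPM in clone 25, against 0.790, 1.03 and 1.10 CPM in clone 18. Irf9, the DNA-binding partner of STAT2, and Ddx58 differed by 1.92 and 2.06 on the log2 scale (SE 0.17 and 0.24, adjusted p = 6.77e-08 and 1.24e-06).

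The Ifit genes went the other way between the untagged clones. Ifit3, a partner of Ifit1, measured 4.68, 2.35 and 2.19 CPM in clone 25, against 26.0, 22.1 and 43.8 CPM in clone 18, a log2 fold change of -3.32 (SE 0.27, adjusted p = 1.38e-08). Ifit1 measured 13.5, 8.96 and 6.55 CPM in clone 25, against 28.9, 18.5 and 17.8 CPM in clone 18. Ifit2, Mx1, Oasl1 and Trim25 were lower in clone 25 as well, with log2 fold changes between -2.10 and -0.43 (adjusted p between 0.000608 and 0.0195). Clone 18 thus had high Ifit genes beside low Parp9 and Dtx3l, and clone 25 the reverse. Summed over the marker list, myeloid transcripts (led by Cd14) were at 95.4, 19.7, 28.2 and 69.7 CPM in clones 14, 12, 25 and 18, and epithelial ones (led by Krt18) at 1480, 171.8, 474 and 904.8 CPM; the part of these in the clone differences was not tested.

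**Figure D2:**
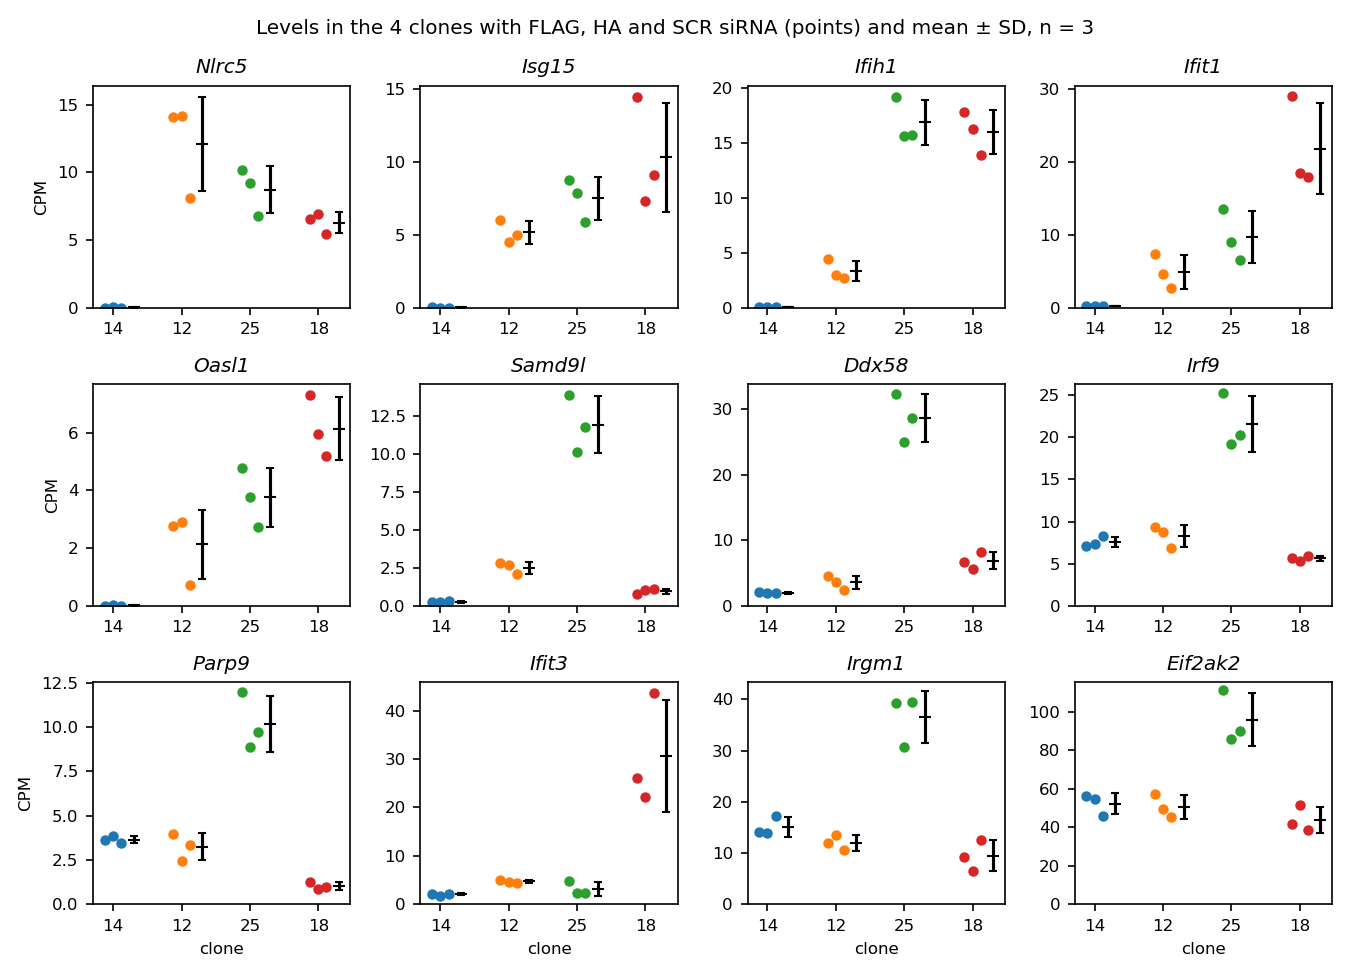
CPM (vertical axis, linear, from 0) of 12 of the genes in clones 14, 12, 25 and 18, with 1 point for each of the FLAG, HA and SCR libraries and the mean ± SD (n = 3) beside them. Nlrc5, Isg15, Ifih1, Ifit1 and Oasl1 lie near 0 in clone 14, Parp9, Irgm1 and Samd9l are highest in clone 25, Ifit3 is highest in clone 18, and Eif2ak2 lies at like levels in clones 14 and 12.

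Leptomycin B was accompanied by higher levels of many of these genes. Against untreated cells, 17 of the 42 tested members rose and 0 fell, beside 4.29% of all genes higher and 5.7% lower (edgeR quasi-likelihood with the clone as a block, adjusted p under 0.05). The log2 fold change was positive for 39 of the 42, with a median of 1.00 against 0.03 over all tested genes. Those that rose were 4 of 9 sensors, 2 of 4 transcription factors, 3 of 13 effectors, 5 of 7 ISG15, ubiquitin and ADP-ribose genes, 2 of the 4 tested antigen presentation genes and 1 of 4 GTPases. Summed over the 44 members, the level was 663.4 CPM with leptomycin B and 493.9 CPM untreated in clone 14, and 1093 and 715 CPM in clone 12. The myeloid marker list summed to 44.8 CPM with leptomycin B and 27.2 CPM untreated (means of 2 libraries), led by Cd14, and its part in the result was not tested.

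Samd9l had the smallest p and a change of similar size in both clones, at 2.24 CPM with leptomycin B against 0.275 untreated in clone 14 and 11.9 against 1.75 CPM in clone 12 (log2 fold change 3.03, SE 0.43, adjusted p = 0.000281). Irf1, a transcription factor that interferon gamma and NF-kB induce, measured 16.7 against 9.95 CPM in clone 14 and 23.8 against 9.59 CPM in clone 12 (log2 fold change 1.02, SE 0.17, adjusted p = 0.000789). Eif2ak2 measured 119.9 against 76.3 CPM in clone 14 and 135 against 68.8 CPM in clone 12 (log2 fold change 0.81, SE 0.13, adjusted p = 0.000839). For these 3 genes both clones moved the same way, and they are the 3 members still called without the leptomycin B library of clone 12.

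Irf7, the factor that amplifies interferon transcription, measured 0.816 CPM with leptomycin B against 0.223 CPM untreated in clone 14 and 2.21 against 0.179 CPM in clone 12 (log2 fold change 2.83, SE 0.58, adjusted p = 0.0049). Ddx58 measured 3.14 against 1.67 CPM in clone 14 and 12.0 against 3.48 CPM in clone 12 (log2 fold change 1.40, SE 0.30, adjusted p = 0.00586). Both rose in each clone, by more in clone 12. Tapbp, the MHC class I peptide-loading factor tapasin, measured 28.6 against 16.5 CPM in clone 14 and 24.7 against 12.2 CPM in clone 12. Trim25, the ubiquitin ligase that activates RIG-I, measured 135 against 89.5 CPM in clone 14 and 88.6 against 62.3 CPM in clone 12. Xaf1, a pro-apoptotic interferon target, measured 1.89 against 1.19 CPM in clone 14 and 8.10 against 3.53 CPM in clone 12. Parp9 measured 7.27 against 4.85 CPM in clone 14 and 7.76 against 2.86 CPM in clone 12, and its overlapping partner Dtx3l, the GTPase gene Igtp and B2m were also called and higher in both clones.

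Of the called genes near 0 in clone 14, Samd9l, Irf7 and Igtp were higher with leptomycin B in both clones, while others differed mainly in clone 12. Oasl1 had no count in either library of clone 14 with leptomycin B or untreated, and measured 3.44 against 0.357 CPM in clone 12 (log2 fold change 3.15, SE 0.49, adjusted p = 0.000516). Ifit1 measured 0.0604 against 0.0515 CPM in clone 14, and 7.30 against 1.45 CPM in clone 12 (log2 fold change 2.07, SE 0.37, adjusted p = 0.00174). Isg15 measured 0.0453 against 0.0344 CPM in clone 14, and 7.94 against 2.47 CPM in clone 12. For these genes the fitted change rests on clone 12, since clone 14 stood at or near 0 in both libraries. Usp18, the protease that removes ISG15, measured 0.0756 against 0 CPM in clone 14 and 2.11 against 0.163 CPM in clone 12 (log2 fold change 3.62, SE 0.77, adjusted p = 0.00586). Oasl2, a relative of Oasl1, had no count in clone 14, and measured 0.666 against 0.114 CPM in clone 12. Ifi44 measured 0 against 0.0172 CPM in clone 14 and 0.906 against 0.390 CPM in clone 12 and was not called.

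Taken clone by clone, the median difference over the 42 members was 0.38 on the log2 scale in clone 14 (29 positive, 6 negative and 7 at 0) and 1.25 in clone 12 (38 positive, 3 negative and 1 at 0). Of the 17 called genes, 15 moved in the same direction in each clone, and Oasl1 and Oasl2 stood at 0 in clone 14. Among the 15, the direction in clone 14 rests on few counts for Ifit1 (4 against 3), Isg15 (3 against 2) and Usp18 (5 against 0). Nlrc5 measured 0.0604 against 0 CPM in clone 14 and 6.26 against 11.0 CPM in clone 12, and was not called. Adar measured 24.4 against 27.8 CPM in clone 14 and 61.3 against 64.8 CPM in clone 12, and Irgm1 18.0 against 17.1 and 19.7 against 11.5 CPM, neither of which was called. Ifit3 measured 0.665 against 0.584 CPM in clone 14 and 2.51 against 1.92 CPM in clone 12, and Bst2, a protein that tethers budding virus, 3.79 against 1.50 and 6.40 against 4.68 CPM, neither of which was called. The number called was 3 without the leptomycin B library of clone 12, 4 without the untreated library of clone 12, 11 without the untreated library of clone 14 and 15 without the leptomycin B library of clone 14. In each of these fits, fewer of all genes were called as well. The labels give the leptomycin B and untreated libraries of clone 12 a remark that reads as a date, so whether they share a day with the others is unknown.

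**Figure D3:**
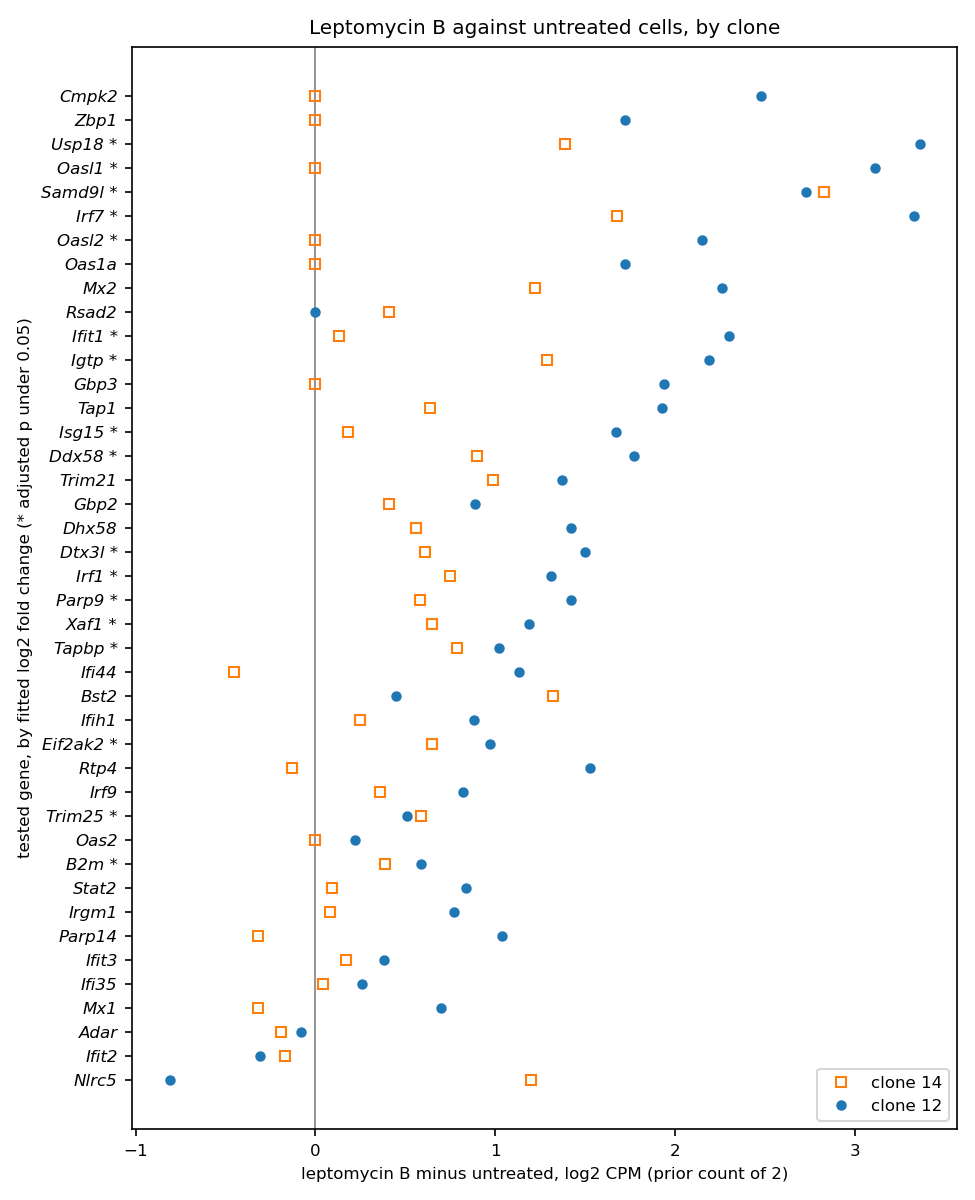
Difference between leptomycin B and untreated libraries in log2 CPM with a prior count of 2 (horizontal axis) for the 42 tested genes, ordered by fitted log2 fold change, with a square for clone 14 and a circle for clone 12. Circles of clone 12 lie right of 0 for 38 genes and squares of clone 14 for 29, and the 17 starred genes have an adjusted p under 0.05.

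Among the siRNAs, few members passed against SCR in the tagged clones, and Oasl1 and Eif2ak2 recurred. These 5 comparisons share the same 2 SCR libraries, so their results are not independent. FLAG siRNA gave 1 member higher and 0 lower (1.19% and 0.987% of all genes), HA siRNA 1 and 0 (1.95% and 2.15%), Qiagen siRNA 2 and 0 (2.8% and 2.53%), Nature siRNA 2 and 2 (3.76% and 4.8%) and Life siRNA 5 and 1 (3.97% and 4.32%), of 42 tested. Outside Life siRNA, which gave 11.9% of tested members higher, no direction held more than 2 members.

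In clone 12, Oasl1 measured 2.90 CPM with HA, 2.75 with FLAG, 2.36 with Nature, 2.09 with Life and 1.92 with Qiagen siRNA, against 0.740 CPM with SCR. In clone 14 it was at 0 with FLAG, Nature and SCR siRNA, and measured 0.0471 CPM with HA, 0.0366 with Qiagen and 0.0379 with Life. The change was called for FLAG (log2 fold change 1.87, SE 0.44, adjusted p = 0.0326), HA (2.09, SE 0.46, adjusted p = 0.0134), Nature (1.64, adjusted p = 0.0272) and Life (1.55, adjusted p = 0.0429). All 5 targeting libraries of clone 12 stood above its SCR library. Without that SCR library none of the 4 was called, and each call was also lost without the library of clone 12 with its own siRNA (FLAG and Life also without that of clone 14).

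Eif2ak2 measured 80.4 CPM with Qiagen, 64.3 with Life, 56.2 with FLAG, 54.8 with HA and 54.5 with Nature siRNA in clone 14, against 46.1 CPM with SCR. The values in clone 12 were 83.9 with Qiagen, 70.9 with Life, 57.4 with FLAG, 49.4 with HA and 52.4 CPM with Nature, against 45.3 CPM with SCR. The order of the siRNAs was nearly the same in both clones, with Qiagen and Life highest. The log2 fold change was 0.85 for Qiagen (SE 0.13, adjusted p = 0.000695) and 0.56 for Life (SE 0.13, adjusted p = 0.0133). The Qiagen call held without any 1 library, and the Life call was lost without the SCR library of either clone or the Life library of clone 12.

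Ifit3 measured 5.42 CPM with Life, 2.13 with FLAG, 1.74 with HA, 1.94 with Nature and 1.25 with Qiagen siRNA in clone 14, against 2.15 CPM with SCR. Clone 12 showed 9.21 with Life, 5.03 with FLAG, 4.65 with HA, 3.19 with Nature and 2.28 CPM with Qiagen, against 4.37 CPM with SCR. Life was highest and Qiagen lowest in both clones, and Life passed (log2 fold change 1.21, SE 0.32, adjusted p = 0.0247). Leaving out SCR of clone 12 ended this call (adjusted p = 0.243, edgeR), as did leaving out SCR of clone 14 (0.061) or Life of clone 14 (0.198). Ifit3 and Eif2ak2 also had the smallest p for any difference among the 5 targeting siRNAs (adjusted p = 0.00168 and 0.00468), which called 5 members with Stat2, Dhx58 and Xaf1, beside 25.1% of all genes. This test uses no SCR library.

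Irf9 rose with Life siRNA by 0.72 on the log2 scale (SE 0.21, adjusted p = 0.0417), at 12.6 against 8.25 CPM with SCR in clone 14 and 12.3 against 6.88 CPM in clone 12. Its call was lost when SCR of clone 12 was left out (adjusted p = 0.439, edgeR), and likewise for Life of clone 12 (0.0747) or clone 14 (0.273). Bst2 measured 3.15 CPM with Nature, 2.55 with FLAG, 2.64 with HA, 2.09 with Qiagen and 2.77 with Life siRNA in clone 14, against 1.78 CPM with SCR. Clone 12 had 9.59 with Nature, 7.12 with FLAG, 8.18 with HA, 4.56 with Qiagen and 6.48 CPM with Life, against 4.45 CPM with SCR. Every targeting library was above SCR in both clones, and Nature passed (log2 fold change 0.98, SE 0.29, adjusted p = 0.0444). That call was lost when SCR of clone 12 was left out (adjusted p = 0.306, edgeR), and likewise for SCR of clone 14 (0.0922) or Nature of clone 12 (0.401). Trim25 measured 66.7 CPM with Nature, 74.3 with FLAG, 71.5 with HA, 88.5 with Qiagen and 71.4 with Life in clone 14, against 82.7 CPM with SCR. The levels in clone 12 were 41.8 with Nature, 63.2 with FLAG, 53.8 with HA, 66.9 with Qiagen and 65.5 CPM with Life, against 67.6 CPM with SCR. With Nature it fell by 0.50 on the log2 scale (SE 0.15, adjusted p = 0.0474) and was the lowest of the 6 in both clones. The same 3 libraries each ended this call when left out (adjusted p = 0.349, 0.0669 and 0.483), and without the SCR library of clone 12 the one member called for Nature was Gbp3, lower.

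The remaining calls concern genes near 0. Ifi44, an antiviral protein, was at 0 in clone 14 with every siRNA but Life (0.0379 CPM), and in clone 12 measured 0.589 CPM with Qiagen, 0.376 with FLAG, 0.260 with HA, 0.258 with Life and 0.139 with Nature, against 0.0119 CPM with SCR. Usp18 measured 0.0574 CPM with Life, 0.480 with FLAG, 0.0744 with HA, 0.128 with Qiagen and 0.364 with Nature in clone 12, against 0.740 CPM with SCR. In clone 14 Usp18 was at 0 with FLAG, HA and Life, and measured 0.0366 CPM with Qiagen, 0.0669 with Nature and 0.0247 with SCR. Oas2, a producer of the 2′-5′ oligoadenylates that activate RNase L, was listed at 0.382 CPM in the SCR library of clone 12, where Nature was at 0. These were called for Qiagen and Life (Ifi44, higher), Life (Usp18, lower) and Nature (Oas2, lower), and their fitted sizes depend on the prior count. None was called without the library of clone 12 with its own siRNA, or without the SCR library of clone 12, in which Ifi44 was lowest and Oas2 and Usp18 were highest of the 6 siRNA libraries of that clone.

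**Figure D4:**
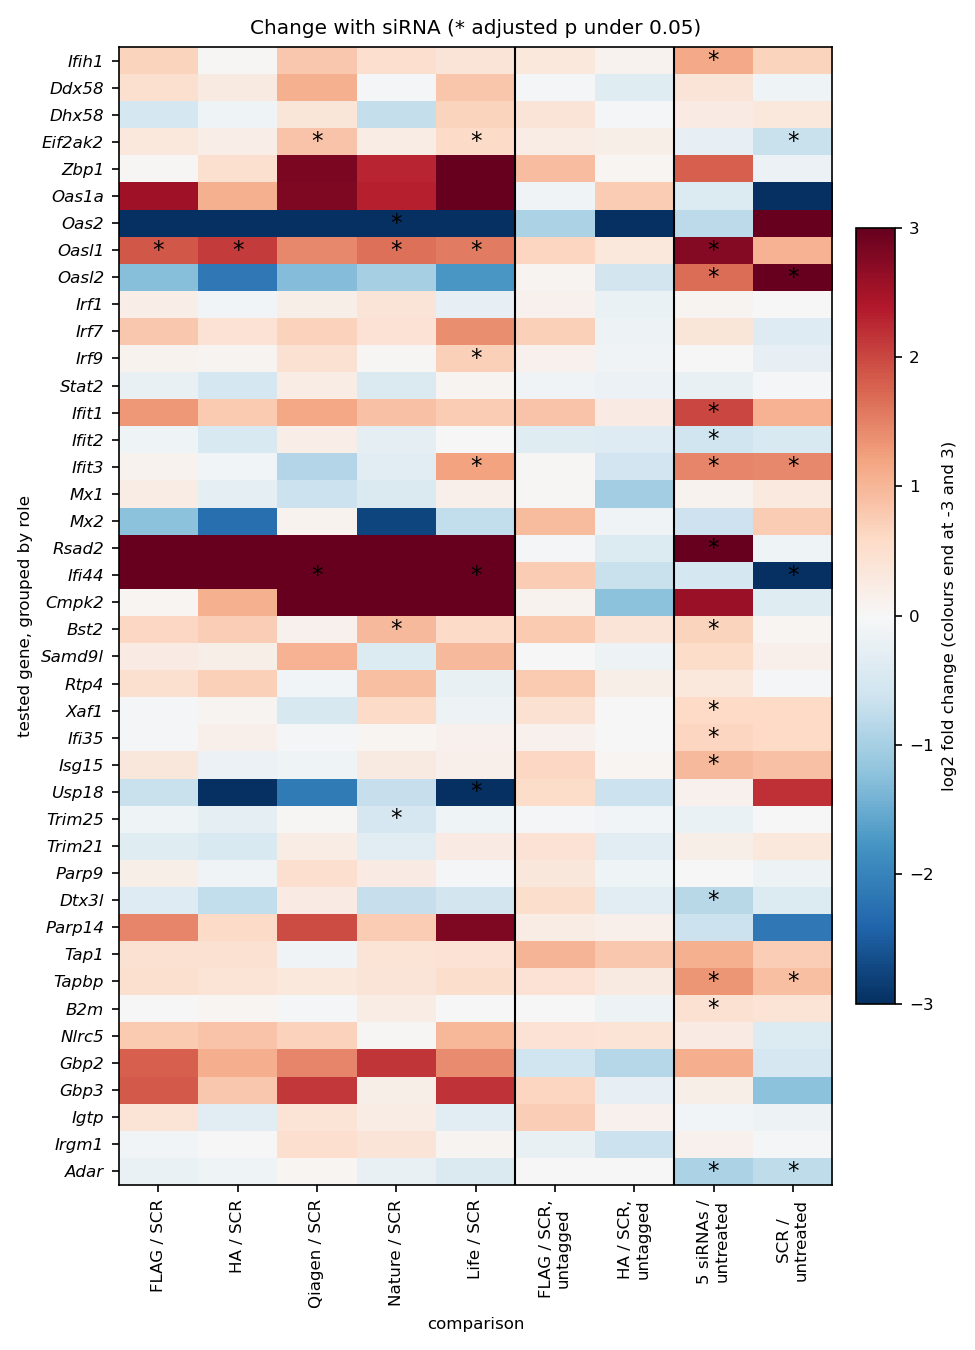
Log2 fold change (colour, ending at -3 and 3) of the 42 tested genes (down) with each siRNA against SCR in the tagged clones, with FLAG and HA siRNA against SCR in the untagged clones, and with the targeting siRNAs and SCR against untreated cells. Stars mark an adjusted p under 0.05, and the row of Oasl1 has a star with FLAG, HA, Nature and Life siRNA.

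In untagged clones 25 and 18, where Ccnd1 measured between 1014 and 1329 CPM with FLAG, HA and SCR siRNA, no member passed for FLAG (0.801% of all genes higher, 1.22% lower) or HA siRNA (0.94% higher, 1.22% lower) against SCR; 4 and 2 members had an unadjusted p under 0.05 (edgeR), as did 1684 and 1546 of the 15099 genes, and DESeq2 called 0 and 1. Oasl1 measured 4.79 CPM with FLAG and 3.76 with HA siRNA, against 2.72 CPM with SCR, in clone 25, and 7.32 and 5.94 against 5.18 CPM in clone 18. All 4 tag siRNA libraries were above the SCR library of their clone (log2 fold change 0.65 for FLAG, SE 0.30, adjusted p = 0.426). Bst2 measured 24.1 with FLAG and 26.1 with HA, against 14.2 CPM with SCR, in clone 25, and 7.11 and 3.51 against 4.18 CPM in clone 18. Eif2ak2 measured 112 and 85.9 against 90.1 CPM in clone 25, and 42.0 and 51.4 against 38.3 CPM in clone 18. The difference between the tag siRNA response of tagged and untagged clones called no member in either direction, beside 0% of genes higher and 0.00662% lower; 6 members, among them Oasl1, and 403 of all genes had an unadjusted p under 0.05 (edgeR), and DESeq2 called 0.

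Other members in the untagged clones varied around SCR. Xaf1 measured 13.5, 8.48 and 10.1 CPM with FLAG, HA and SCR siRNA in clone 25, and 4.97, 4.33 and 3.56 CPM in clone 18. Adar measured 41.4, 31.0 and 36.9 CPM in clone 25, and 17.7, 24.1 and 20.2 CPM in clone 18. Xaf1 was above SCR with FLAG siRNA in both clones and mixed with HA, while Adar was mixed with each. Tapbp measured 35.8, 39.6 and 30.5 CPM in clone 25 and 53.6, 39.2 and 35.0 CPM in clone 18, with SCR the lowest in each. Trim25 measured 82.2, 65.0 and 76.5 CPM in clone 25, and 87.7, 108 and 105 CPM in clone 18. Oasl2, Ifi44 and Usp18 measured 3.08, 2.92 and 3.39 CPM with FLAG, 2.28, 1.65 and 1.96 CPM with HA and 2.43, 1.68 and 1.57 CPM with SCR siRNA in clone 25. In clone 18 the 3 genes measured 1.71, 0.368 and 0.526 CPM with FLAG, 0.889, 0.0234 and 0.0936 CPM with HA and 1.90, 0.237 and 0.563 CPM with SCR. They were lowest with HA siRNA in clone 18, and no change was called.

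Against untreated cells, siRNA-transfected cells of the tagged clones differed in both directions. These comparisons share the 2 untreated libraries with the leptomycin B comparison, and they hold the transfection together with the siRNA. Whether the untreated libraries share a day with the siRNA libraries is unknown, so a difference in day cannot be told apart from transfection. SCR siRNA gave 3 members higher and 3 lower (1.68% and 3.61% of all genes), and the 5 targeting siRNAs together gave 12 higher and 3 lower (12.9% and 17.6%), of 42 tested. The median log2 fold change with the targeting siRNAs was 0.25, against 0 over all tested genes.

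Adar fell, at 11.6, 13.2, 15.7, 14.7 and 10.7 CPM with FLAG, HA, Qiagen, Nature and Life siRNA in clone 14, and 14.9 CPM with SCR, against 27.8 CPM untreated. Clone 12 gave 39.8, 39.8, 43.1, 31.1 and 31.7 CPM with the same 5 and 41.9 with SCR, against 64.8 CPM untreated. All 6 siRNA libraries lay below the untreated one in each clone (log2 fold change of the 5 -0.95, SE 0.13, adjusted p = 0.000177). Tapbp did the reverse, at 47.5, 47.4, 44.1, 36.5 and 54.6 CPM with the 5 in the same order in clone 14 and 38.9 with SCR, against 16.5 CPM untreated. In clone 12 it measured 28.9, 26.4, 24.4, 32.3 and 26.4 CPM and 17.8 with SCR, against 12.2 CPM untreated. All 12 siRNA libraries lay above the untreated library of their clone (log2 fold change 1.33, SE 0.18, adjusted p = 0.000177). With the 5 siRNAs, the calls on both genes held without any 1 library.

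Ifit1 measured 0.267, 0.251, 0.146, 0.201 and 0.190 CPM with FLAG, HA, Qiagen, Nature and Life siRNA in clone 14 and 0.222 with SCR, against 0.0515 CPM untreated. In clone 12 it measured 7.34, 4.57, 7.04, 5.43 and 5.05 CPM and 2.66 with SCR, against 1.45 CPM untreated. Here too every siRNA library was above the untreated one (log2 fold change of the 5 2.02, SE 0.33, adjusted p = 0.000566). Ifit3, at 0.584 and 1.92 CPM untreated in clones 14 and 12, rose with the 5 (log2 fold change 1.45, SE 0.29, adjusted p = 0.0018) and with SCR (1.45, adjusted p = 0.0212). Ifit2, the third gene of that cluster, fell by 0.60 (SE 0.14, adjusted p = 0.00488). Ifih1 and Oasl1 rose with the 5 by 1.14 and 2.75 on the log2 scale (SE 0.26 and 0.43, adjusted p = 0.00453 and 0.000482). With SCR, Eif2ak2 fell by 0.67 (SE 0.13, adjusted p = 0.00866), below untreated in both clones.

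Xaf1 measured 2.40, 2.23, 1.50, 3.01 and 1.71 CPM with FLAG, HA, Qiagen, Nature and Life siRNA in clone 14 and 2.17 with SCR, against 1.19 CPM untreated. In clone 12 it measured 4.03, 4.98, 3.38, 7.37 and 4.62 CPM and 4.59 with SCR, against 3.53 CPM untreated. Nature was highest and Qiagen lowest in both clones, and the 5 together rose by 0.60 on the log2 scale (SE 0.21, adjusted p = 0.0352). Oasl2 measured 0.438, 0.186, 0.435, 0.538 and 0.316 CPM in clone 12 and 1.03 with SCR, against 0.114 CPM untreated, and in clone 14 it was at 0 in all but the HA (0.0157 CPM) and SCR (0.0247 CPM) libraries. The SCR library of clone 12 was the highest of that clone. Called with the 5 were also Ifi35, B2m, Isg15, Bst2, Oasl2 and Rsad2 (higher) and Dtx3l (lower), with adjusted p between 0.00401 and 0.0497 (edgeR). Of these, Rsad2 lay near the floor in both clones, at no more than 0.115 CPM in clone 12 and 0.0943 CPM in clone 14. Isg15 and Oasl2 reached no more than 0.114 and 0.0247 CPM in clone 14. The number called fell to 6 without the untreated library of clone 12, to 5 without that of clone 14 and to 9 without the FLAG library of clone 12. For SCR it was 1 without the SCR library of clone 12 (Tapbp), 2 without the untreated library of clone 12 (Eif2ak2 and Adar) and 1 without the untreated library of clone 14 (Oasl2).

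The lines carrying mCherry had higher levels of many members than parental clone 18. All 6 mCherry-bearing libraries (FLAG-mCherry-HA and mCherry, with FLAG or HA siRNA) were above both parental libraries with FLAG or HA siRNA for 20 of 40 tested members and below both for 0, beside 3.75% of tested genes above and 3.93% below. With the parental SCR library counted as well, 15 members were above all 3 and 0 below, beside 2.39% and 2.05% of tested genes. A member near 0 in the parental clone, such as Cmpk2, could pass the filter on low counts through the mCherry-bearing libraries alone. These counts of members therefore describe the data and are not a test. In a fit of these 8 libraries, edgeR called 0 members in either direction (0% of 13617 genes), while 39 of 40 fold changes were positive with a median of 0.78 on the log2 scale, against -0.01 over all genes tested, and 22 members had an unadjusted p under 0.05, as did 868 of the 13617 genes. DESeq2 on the same counts called 12 members, all higher, among 60 genes higher and 57 lower. The summed level of the members was between 928.3 and 1284 CPM in the 6, against 746.9 to 836 CPM in the 3 parental libraries.

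Ifih1 measured 28.4, 38.0 and 30.9 CPM in the FLAG-mCherry-HA line and 36.7, 36.1 and 33.8 CPM in the mCherry line (HA REP1, HA REP2 and FLAG REP2), against 17.9, 16.3 and 13.9 CPM in parental clone 18 with FLAG, HA and SCR siRNA. The groups did not overlap, and the log2 fold change was 0.97 (SE 0.14, adjusted p = 0.323, edgeR), against an adjusted p of 4.3e-06 with DESeq2. Ddx58 measured 9.41, 9.97 and 9.93 CPM in the FLAG-mCherry-HA line and 13.3, 11.1 and 13.8 CPM in the mCherry line, against 6.76, 5.68 and 8.21 CPM in the parental clone. Ifit1 measured 36.0, 58.8 and 60.8 CPM in the FLAG-mCherry-HA line and 50.5, 92.5 and 64.7 CPM in the mCherry line, above the parental values given before. Both sensors and Ifit1 were thus above every parental library.

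Isg15 measured 13.2, 18.1 and 20.2 CPM in the FLAG-mCherry-HA line and 21.4, 27.1 and 22.8 CPM in the mCherry line, of which 1 library lay below the highest parental one. Samd9l measured 3.20, 2.36 and 2.14 CPM in the FLAG-mCherry-HA line and 4.52, 3.12 and 2.05 CPM in the mCherry line, all above the parental ones. Ifit3 measured 48.3, 52.7 and 48.2 CPM in the FLAG-mCherry-HA line and 42.0, 57.6 and 44.5 CPM in the mCherry line, all above both tag siRNA libraries of the parental clone, while its SCR library lay among them. Without the mCherry HA REP2 library, which is the one of the 8 with over 2% Rn45s, edgeR called 7 members, all higher: Ifih1 (adjusted p = 0.0173), Ddx58, Ifit1, Ifit3, Samd9l, Parp14 and Irgm1. Over all genes, 37 were then called higher and 123 lower of 13580 tested. Leaving out any other 1 of the 8 gave 0 members. Only 2 parental libraries enter the fit, and the lines differ from the parent by the construct, the PURO marker and any selection or passage at once, which cannot be told apart.

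**Figure D5:**
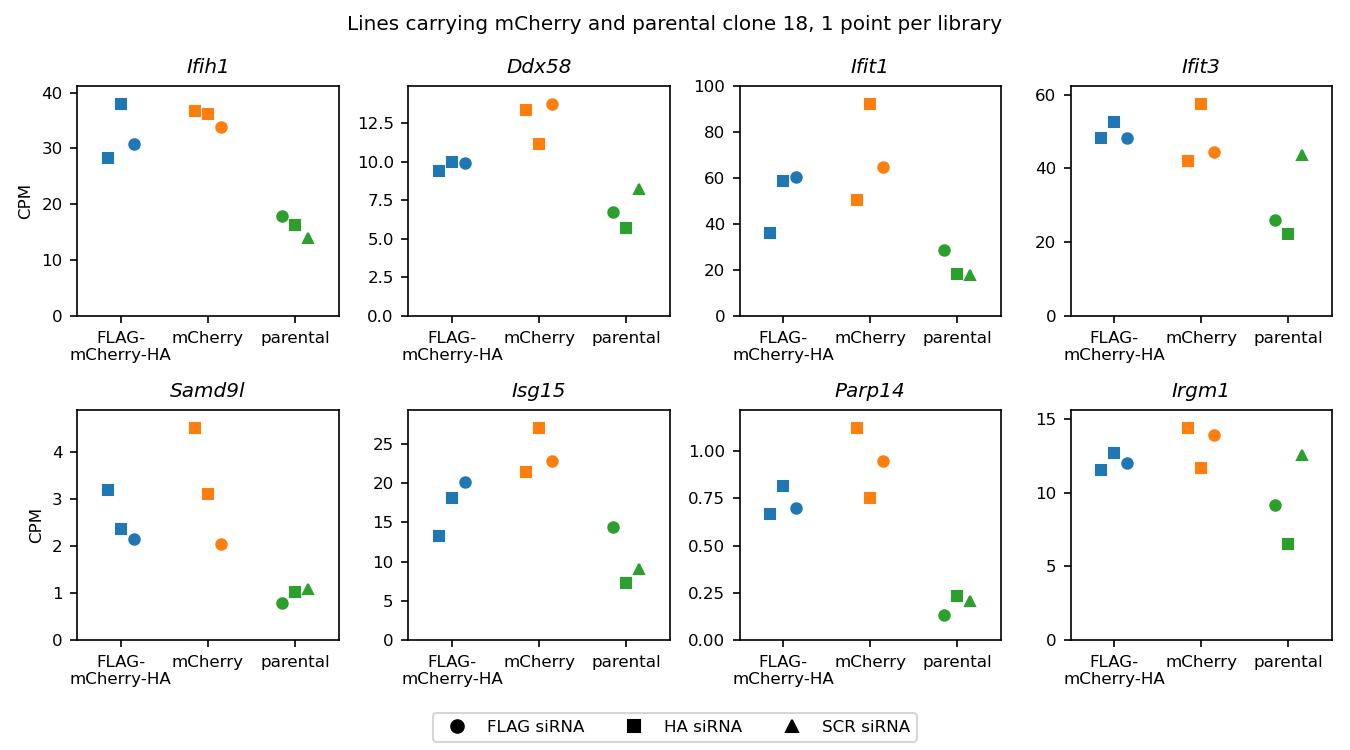
CPM (vertical axis, linear, from 0) of 8 genes in the FLAG-mCherry-HA line, the mCherry line and parental clone 18, with 1 point per library and a shape for the siRNA. Ifih1, Ddx58, Ifit1 and Samd9l lie above every parental library in all 6 mCherry-bearing libraries, while for Ifit3 the parental SCR library lies among them.

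Between FLAG-mCherry-HA and mCherry, no member passed (0% of all genes higher and 0% lower). By edgeR, 5 members had an unadjusted p under 0.05, as did 1390 of the 15099 genes, and DESeq2 called 0 members. The log2 fold change was positive for 5 of 42 members, with a median of -0.35 against 0 over all genes. The 3 pairs of libraries with the same siRNA and REP were all lower in FLAG-mCherry-HA for 21 of the 42 members and all higher for 1, Ifit2, beside 18% of all tested genes lower and 18.5% higher in all 3. Xaf1 had the smallest p, at 3.86, 6.56 and 5.60 CPM in FLAG-mCherry-HA, against 7.07, 11.3 and 9.28 CPM in mCherry (log2 fold change -0.79, SE 0.20, adjusted p = 0.443). Bst2 measured 3.10, 4.64 and 5.10 CPM in FLAG-mCherry-HA, against 8.43, 8.86 and 6.72 CPM in mCherry (log2 fold change -0.92, SE 0.23, adjusted p = 0.443). Both were lower in FLAG-mCherry-HA in all 3 pairs, without overlap of the lines, yet missed the threshold over all genes. Isg15 was lower in FLAG-mCherry-HA in each pair as well.

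For the other members with values by library, the pairs were mostly lower or mixed. Oasl1 measured 6.52, 10.4 and 8.30 CPM in FLAG-mCherry-HA, against 10.8, 10.9 and 9.88 CPM in mCherry. Usp18 measured 0.792, 0.815 and 1.32 CPM, against 1.82, 1.76 and 1.45 CPM in mCherry, and Ifi44 0.602, 0.857 and 0.433 CPM, against 0.870, 1.42 and 1.07 CPM. These 3 were lower in every pair. Oasl2 measured 1.77, 3.49 and 2.62 CPM in FLAG-mCherry-HA, against 3.65, 3.72 and 2.46 CPM in mCherry. Eif2ak2 measured 61.4, 57.2 and 48.6 CPM, against 64.2, 61.4 and 49.7 CPM in mCherry, and Adar 23.3, 19.7 and 17.6 CPM, against 26.6, 20.8 and 22.2 CPM. The means of PKR differed by less than the SD of either line. Tapbp measured 29.6, 39.6 and 52.3 CPM, against 39.3, 54.9 and 55.6 CPM in mCherry, and Trim25 116, 99.7 and 86.9 CPM, against 105, 83.0 and 93.1 CPM. Nlrc5 measured 10.7, 6.25 and 5.41 CPM in FLAG-mCherry-HA, against 7.15, 8.57 and 7.60 CPM in mCherry. Parp9 measured 2.63, 1.71 and 1.64 CPM, against 4.31, 1.50 and 3.00 CPM in mCherry, and Irgm1 11.5, 12.7 and 12.0 CPM, against 14.4, 11.7 and 13.9 CPM. The lines overlapped for each of these genes but Usp18 and Ifi44.

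Upstream parts of the pathway were read from 125 further genes, 107 of them tested. Interferon beta was scarcely detected: Ifnb1 had 9 counts over all 28 libraries and at most 0.126 CPM. Of the 10 interferon ligand genes in the list, 1 passed the filter on low counts, Ifne. It was called higher in clone 14 than in clone 12 (edgeR). The receptor chains Ifnar1 and Ifnar2 ranged between 28.3 and 73.0 CPM and between 13.1 and 28.7 CPM over the libraries, Irf3, the factor that first induces Ifnb1, between 13.0 and 34.6, the adaptor gene Mavs between 24.6 and 113 and the endosomal double-stranded RNA receptor Tlr3 between 1.04 and 13.4 CPM. Ifnar1, Ifnar2, Irf3, Mavs and Tlr3 were thus above 1 CPM in every library, those of clone 14 included. The sensor gene Ifih1 and the factor Irf7 averaged under 1 CPM in clone 14. The part of any of these genes in the clone differences was not tested. In clone 14 against clone 12, 34 of the 107 were higher (31.8%, near the 29.2% of all genes) and 45 lower (42.1%, against 33.4% of all genes). The DNA sensor relative Ifi202b was lower, at 0 CPM in clone 14 and 92.1 ± 11.2 CPM in clone 12 (SD, n = 3). The membrane protein Ifitm1 was higher, at 518.3 ± 41.0 CPM in clone 14 and 2.56 ± 0.268 CPM in clone 12. The DNA sensor cGAS (Mb21d1) stood at 0.732 ± 0.313 CPM in clone 14 and 10.1 ± 1.46 CPM in clone 12. Mavs, Tlr3 and Irf3 were higher in clone 14 by 1.09, 1.26 and 0.70 on the log2 scale, and Ifnar1 and Ifnar2 lower, at -0.30 and -0.42, all with an adjusted p under 0.05 (edgeR). In clone 25 against clone 18, 48 were higher (44.9%, against 22.9% of all genes) and 26 lower (24.3%, near the 24.6% of all genes), among them Tlr3 (2.01) and Ifnar2 (0.48), higher, and the chemokine gene Ccl7 (-4.42), lower. A gene of the list near 0 in a clone could pass the filter through libraries where it is high. These shares between clones therefore describe the data and are not a test.

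With leptomycin B, 20 of the 107 were higher (18.7%, against 4.29% of all genes) and 1 lower (0.935%, against 5.7%). The lower one was Tank, a scaffold of the kinase TBK1, at -0.79, and Stat3, Ifi27 and Tlr3 rose by 1.08, 1.42 and 1.22 (adjusted p for Tlr3 = 0.0031, edgeR). With Life siRNA, 4 were higher (3.74%, near the 3.97% of all genes) and 1 lower (0.935%, against 4.32%). The lower one was Mavs, which measured 42.2 against 93.8 CPM with SCR in clone 14 and 24.6 against 42.0 CPM in clone 12 (log2 fold change -0.96, adjusted p = 0.000228, edgeR). FLAG siRNA called 0 of the 107 in tagged and 0 in untagged clones (edgeR, where 12 and 6 had an unadjusted p under 0.05). HA siRNA called 3 lower in tagged clones (2.8%, against 2.15% of all genes). In untagged clones it called 1 lower, Parp12 (0.935%, against 1.22%). Qiagen siRNA called 1 higher (0.935%, against 2.8% of all genes) and 2 lower (1.87%, against 2.53%). Nature siRNA called 2 higher (1.87%, against 3.76%) and 3 lower (2.8%, against 4.8%). The zinc-finger ADP-ribosyltransferase gene Parp12 fell with HA siRNA by 1.83 in the tagged clones and by 1.64 in the untagged ones. The RNA helicase gene Mov10 fell with Qiagen and Nature siRNA, by 1.78 and 1.29. Against untreated cells, the targeting siRNAs gave 26 higher (24.3%, against 12.9% of all genes) and 12 lower (11.2%, against 17.6%), among them Ifitm3 (0.77), the chemokine genes Ccl7 (2.47) and Cxcl10 (2.24) and the proteasome activator gene Psme2 (0.79), all higher on the log2 scale. SCR gave 5 higher (4.67%, against 1.68% of all genes) and 2 lower (1.87%, against 3.61%). No gene of the list passed between FLAG-mCherry-HA and mCherry or between mCherry-bearing lines and clone 18 (edgeR; 14 and 16 had an unadjusted p under 0.05).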

How the data were processed

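RNA was taken from transformed mouse fibroblasts the morning after overnight RNAiMAX transfection, leptomycin B or no treatment, and sequenced from stranded poly(A) libraries as single reads of 100 bp, per the labels. The authors deposited raw counts per gene for 28 libraries. Build mm10 and the programs CASAVA 1.8.2, FastQC, Bowtie2 2.2.3, TopHat2 2.0.13 and HTSeq 0.6.1p1 come from the submitters' processing notes. No strand setting or annotation is given in the sources used here, so genes that overlap may share reads. The 22 entries that have a symbol and no gene ID took up to 0.0137% of counts and were kept.

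edgeR 4.0.16 (R 4.3.3, limma 3.58.1) was run on the counts with filterByExpr over 15 groups and TMM: 1 robust quasi-likelihood fit, 28 libraries, 15099 genes, 11 residual degrees of freedom, Benjamini-Hochberg adjustment over all genes. The clone was a block, since both arms use the same cell lines; the lowest correlation of deviations within a clone was 0.834 over 56 tagged pairs and 0.862 over 6 untagged pairs, and 0.384 over the 2 pairs of mCherry lines. Clone contrasts compare libraries of single lines. Lines carrying mCherry were set against parental clone 18 in a separate fit of 8 libraries (13617 genes, 4 degrees of freedom). CPM use TMM library sizes, and log2 CPM a prior count of 2. Intervals of count ratios are exact (95%) and cover counting error only. The fit was checked on simulated data. Alternatives were DESeq2 1.42.0, RLE size factors, no and stricter filters, no clone block, leaving out each library, and leaving out the 4 libraries rich in Rn45s.

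Members and lists were chosen with earlier results of these data known. Values in every library are given for members called in 4 or more comparisons and for the 2 smallest p in each comparison with a call. Promoters are RefSeq, GRCm38.p6; gene IDs of all 44 members matched. One pathway gene named by the rule is not reported here.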

Additional observations from a re-analysis of the deposited data

How the results depend on the processing

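Of 1631 values of members named as called, computed under the alternatives, 1377 kept their direction and their side of the threshold, 249 no longer passed and 5 changed sign. The clone block decided the calls on treatment: without it, 0 members were called for FLAG, HA, Qiagen, Nature or Life siRNA, leptomycin B, SCR or the targeting siRNAs against untreated cells, and for any difference among the targeting siRNAs. Calls over all genes fell without the block as well. They went from 1508 to 48 for leptomycin B, and from 4607 to 16 for the targeting siRNAs against untreated cells. DESeq2 called 2 members for HA siRNA, 1 for HA siRNA in untagged clones, 11 for any difference among the targeting siRNAs and 12 for the mCherry-bearing lines. Without a filter on low counts, Nature siRNA called 2, and with a mean of at least 1 CPM required, any difference among the targeting siRNAs called 8 and clone 14 against clone 12 called 22, where fewer genes were tested. Without the 4 libraries with over 2% Rn45s, edgeR called 0 members for HA siRNA, 2 for Nature siRNA, 0 for Life siRNA and 7 for the mCherry-bearing lines. RLE size factors changed none of these counts.

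Leaving out 1 library at a time, the number of members called ran between 0 and 4 for FLAG siRNA, 0 and 1 for HA, 1 and 6 for Qiagen, 0 and 5 for Nature, 0 and 6 for Life, 3 and 15 for leptomycin B, 1 and 4 for SCR against untreated, 5 and 15 for the targeting siRNAs against untreated, 2 and 5 for any difference among them, and 0 and 7 for the mCherry-bearing lines. In most of these fits for siRNA and leptomycin B, fewer of all genes were called as well, so the drop was not particular to these members. The sign changes came from genes near 0 in clone 14. The log2 fold change of Oasl1 ranged between -1.23 and 2.95 for FLAG siRNA, lowest without the FLAG library of clone 12, between -1.23 and 2.73 for Nature siRNA, lowest without the Nature library of clone 12, and between -0.53 and 3.26 for leptomycin B, lowest without the leptomycin B library of clone 12. Oasl2 ranged between -0.021 and 2.52 for leptomycin B, lowest without the same library, and Isg15 between -0.39 and 1.41 for the targeting siRNAs against untreated, lowest without the untreated library of clone 12. The cause was not tested. Ratios of clone 14 to clone 12 with single libraries left out were added after the data were seen.

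Precision is limited by 1 library per treatment and clone, by 2 parental libraries against the mCherry-bearing lines, and by counts under 10 for many members in clone 14.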
